A study of Homo sapiens with 4 samples.

Results

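Peaks of histone H3 lysine 27 acetylation (H3K27ac) that stood at the start of a long non-coding RNA (lncRNA) gene and away from protein-coding promoters were examined in the neuroblastoma cell line SK-N-BE(2)C. A peak was taken where it lay within 1000 bp of an annotated start of a GENCODE lncRNA gene and over 5000 bp from every annotated protein-coding start, on chromosomes 1 to 22, with both distances measured from the nearest peak edge. By this rule, 2238 of the 63051 peaks of control cells (sgCtrl, 3.55%) and 1887 of the 49412 peaks of *SNHG1*-depletion cells (sgSNHG1, 3.82%) were standalone lncRNA peaks. The rule used positions only and no measured value. GRCh38 coordinates are used throughout.

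SK-N-BE(2)C is an established line with amplification of *MYCN*, the oncogene that encodes a MYC-family transcription factor. Control cells had received Cas9 with a non-targeting guide RNA (genotype wildtype), and depletion cells had received Cas9 with a pair of guide RNAs against *SNHG1*, itself a lncRNA and host of small nucleolar RNAs (genotype SNHG1 knockout). Cells of both groups were co-transfected with a surrogate reporter, kept in puromycin for 3 to 7 days, sorted as single cells and grown as clones for 1 to 2 weeks, so a group stands for cells derived from clones, and which clone was used is not given in the labels. Each group had 2 ChIP-seq samples, which were pooled before peaks were called, and effects of the depletion and of differences between clones cannot be told apart. With 1 list per group no spread between replicates can be computed, and all intervals given here are 95% intervals that cover counting error only.

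LncRNAs are transcribed by RNA polymerase II, like messenger RNAs, but are not translated into a protein. Some have promoters with CpG islands that are active in most cells, and others start from enhancer-like elements or from the long terminal repeats of old retroviruses and are used in few cell types. H3K27ac marks active promoters and active enhancers, and the nucleosomes that carry it flank the nucleosome-poor start site. A peak beside a lncRNA start that is far from protein-coding promoters can therefore reflect the promoter of that lncRNA or an enhancer that overlaps it, and the mark alone cannot separate them.

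Fold enrichment, the measure used below, is the height of a peak at its summit divided by the local background that the peak caller estimated, and −log10 p is the significance that the caller gave the peak. The number of fragments stacked over a summit, called the pileup, was worked back from these values. Standalone lncRNA peaks had a median pileup of 52 fragments in sgCtrl and 48 in sgSNHG1 over a median local background of 11.2 and 10.7 fragments, and the lowest background of any peak was 4.89 and 4.66. Of the neuroblastoma marker genes examined, 9 of 10 had an sgCtrl peak within 1000 bp of a start (all but *DBH*, which encodes dopamine beta-hydroxylase) and 10 of 10 had an sgSNHG1 peak, including *HAND2*, *GATA3*, *ISL1* and *TH*. Of the markers of other lineages, 3 of 10 had a peak in each list (*EPCAM*, *MYOD1* and *SPI1*). The targeted gene *SNHG1* is not among the standalone loci, since its annotated starts lie 51 to 2859 bp from a start of *SLC3A2*.

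The sequences around a start are shown for some of the loci on which the results below turn, all at genes with a symbol, to which the rankings are limited. Each run spans 200 bases before to 99 bases after an annotated start, 5′ to 3′ on the strand of the gene, from the GRCh38 reference. Capitals mark matches on either strand to the searched motifs, which were CACGTG (the E-box of MYC-family proteins), AGATAA (the core of GATA factor sites), CCAAT (the CCAAT box), TATAAA (the TATA box), TGANTCA (the AP-1 site), TAATTA (a homeodomain core) and GGGCGG (the GC box of SP1-like factors). The first pair, *FAM230C* (chr13:18211759-18212058, plus strand) and *MIR4458HG* (chr5:8457506-8457805, plus strand), had the highest fold enrichment in sgCtrl among genes with a peak in both lists.
FAM230C: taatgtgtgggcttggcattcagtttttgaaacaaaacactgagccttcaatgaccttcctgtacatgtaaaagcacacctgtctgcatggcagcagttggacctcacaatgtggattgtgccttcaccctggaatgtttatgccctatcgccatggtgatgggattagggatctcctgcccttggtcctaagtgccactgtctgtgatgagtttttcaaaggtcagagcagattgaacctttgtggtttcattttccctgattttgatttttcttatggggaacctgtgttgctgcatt
MIR4458HG: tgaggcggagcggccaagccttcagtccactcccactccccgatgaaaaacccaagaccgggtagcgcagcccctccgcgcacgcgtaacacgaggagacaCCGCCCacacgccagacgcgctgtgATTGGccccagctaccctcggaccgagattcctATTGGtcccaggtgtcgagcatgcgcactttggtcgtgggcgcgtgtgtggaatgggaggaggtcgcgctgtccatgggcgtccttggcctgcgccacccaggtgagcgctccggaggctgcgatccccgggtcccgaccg
The *MIR4458HG* start is rich in CpG (67% GC, 31 CpG in 300 bases), with 1 match to GGGCGG and 2 to CCAAT. The *FAM230C* start has 45% GC, 1 CpG and no match to a searched motif, although its peak was the higher one.

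The second pair was *GIHCG* (chr12:57935960-57936259, minus strand) and *MIR3142HG* (chr5:160468068-160468367, plus strand). They had the highest peaks among genes whose sgSNHG1 peaks all lay over 1000 bp from every sgCtrl peak.
GIHCG: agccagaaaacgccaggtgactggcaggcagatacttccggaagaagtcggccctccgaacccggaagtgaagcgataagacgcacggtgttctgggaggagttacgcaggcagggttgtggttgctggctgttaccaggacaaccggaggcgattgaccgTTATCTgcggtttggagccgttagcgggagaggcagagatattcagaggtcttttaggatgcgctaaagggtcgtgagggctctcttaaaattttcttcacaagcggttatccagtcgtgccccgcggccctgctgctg
MIR3142HG: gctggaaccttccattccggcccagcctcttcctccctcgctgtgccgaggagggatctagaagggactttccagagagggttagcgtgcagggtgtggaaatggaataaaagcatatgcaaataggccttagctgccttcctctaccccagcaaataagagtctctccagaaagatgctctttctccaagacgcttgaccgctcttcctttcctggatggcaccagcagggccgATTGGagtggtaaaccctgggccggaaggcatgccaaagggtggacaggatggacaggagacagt
The *GIHCG* start holds 21 CpG and 1 match to AGATAA, and the *MIR3142HG* start holds 8 CpG and 1 match to CCAAT.

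Of the genes with a symbol and a −log10 p of at least 10 in both lists, *THBS2-AS1* (chr6:169213238-169213537, plus strand) had the largest rise in sgSNHG1 relative to all shared peaks, and *DPY19L2P3* (chr7:29684954-29685253, plus strand) was among those with the largest falls.
THBS2-AS1: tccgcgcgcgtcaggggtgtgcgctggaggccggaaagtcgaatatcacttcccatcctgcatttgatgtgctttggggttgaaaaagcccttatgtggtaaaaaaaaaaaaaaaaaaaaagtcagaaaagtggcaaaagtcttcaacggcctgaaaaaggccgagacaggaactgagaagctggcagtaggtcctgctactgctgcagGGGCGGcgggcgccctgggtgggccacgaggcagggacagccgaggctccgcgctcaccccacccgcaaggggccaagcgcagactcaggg
DPY19L2P3: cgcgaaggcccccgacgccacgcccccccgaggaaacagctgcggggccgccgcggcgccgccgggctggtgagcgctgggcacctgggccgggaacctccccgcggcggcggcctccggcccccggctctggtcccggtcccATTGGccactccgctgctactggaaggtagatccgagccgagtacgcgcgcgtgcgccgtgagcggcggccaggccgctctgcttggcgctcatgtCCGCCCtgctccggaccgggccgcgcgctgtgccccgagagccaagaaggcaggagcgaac
GGGCGG matched in both of these windows, with 1 match at *THBS2-AS1* and 1 at *DPY19L2P3*. Among all 33294 standalone lncRNA start windows of 300 bases, 17.3% held GGGCGG, 36.5% CCAAT, 14.997% AGATAA, 15.8% TATAAA, 5.12% CACGTG, 11.8% TGANTCA and 7.41% TAATTA.

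To see how the mark sits at these genes, the share of starts lying under a peak was followed from 5 kb before to 5 kb after the start. In sgCtrl the share was highest 250 bp after the start of standalone lncRNAs, at 7.99%, was 4.86% over the start itself, was lowest near it at 150 bp before (4.39%) and had a second, lower maximum of 5.07% at 400 bp before. In sgSNHG1 the maxima were 7.97% at 200 bp after and 5.09% at 400 bp before the start, with 4.33% over the start and 3.96% at 50 bp before it. The share beyond 4000 bp averaged 1.15% in sgCtrl and 0.839% in sgSNHG1. Protein-coding starts had maxima of 34.0% after and 13.9% before the start in sgCtrl and 35.3% and 16.1% in sgSNHG1, with a minimum between them of 12.6% and 13.6% at 150 bp before. Unlike at lncRNA starts, the share over the start itself (15.8% and 17.2%) was above the maximum before it. The maximum after the start exceeded that before it by a ratio of 1.57 at lncRNA starts and 2.45 at protein-coding starts in sgCtrl, and by 1.56 and 2.19 in sgSNHG1.

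**Figure D1:**
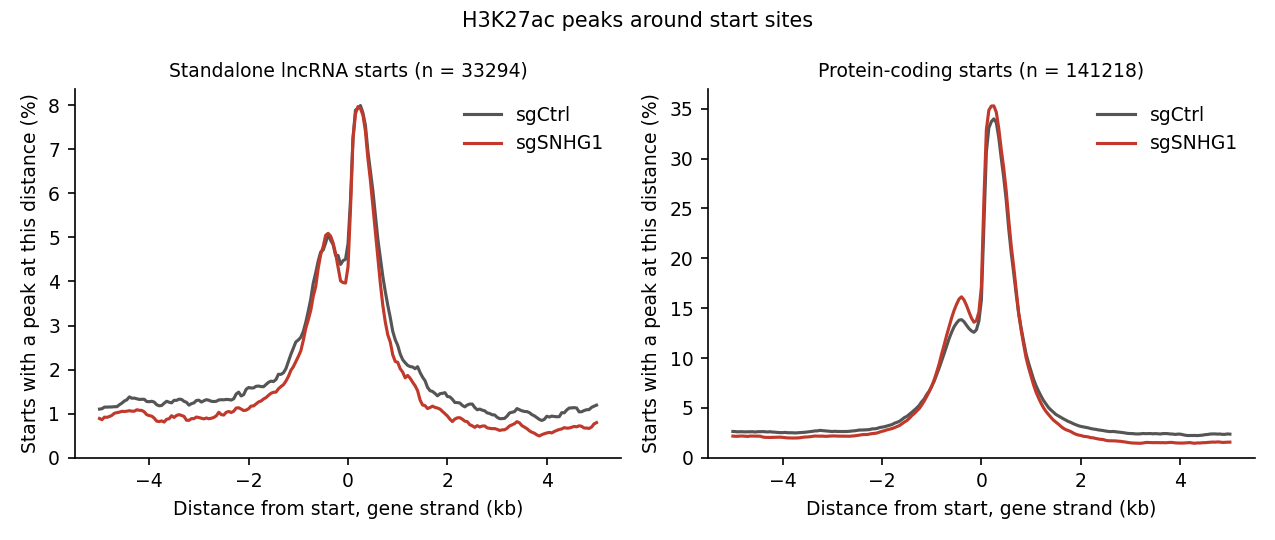
Share of annotated starts (%, y axis) that lie under an H3K27ac peak at each distance (kb, x axis, along the strand of the gene), for standalone lncRNA starts (left) and protein-coding starts (right), with sgCtrl in grey and sgSNHG1 in red. Both kinds of start have a higher maximum just after the start, a lower maximum before it and a dip between them that is lowest before the start, and the y axes differ (maxima in sgCtrl 7.99% and 34.0%).

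Single standalone lncRNA peaks followed this shape loosely. In sgCtrl, 704 of them (31.5%) spanned a lncRNA start, and in sgSNHG1 601 (31.8%) did. The summit lay a median of 73.5 bp after the nearest start in sgCtrl (quartiles -382 and 401 bp) and 71 bp after it in sgSNHG1 (-358 and 348.5 bp). The nearest protein-coding start was a median of 37294.5 bp away in sgCtrl and 37313 bp away in sgSNHG1, and 41.3% of the peaks of either list were over 50 kb from one. The summit fell inside the body of a protein-coding gene for 410 sgCtrl peaks (18.3%), of which 326 had their lncRNA on the opposite strand to each such gene, and for 322 sgSNHG1 peaks (17.1%).

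To place the standalone lncRNA peaks among other peaks, they were set beside protein-coding promoter peaks, within 1000 bp of a protein-coding start, and other distal peaks, over 5000 bp from every protein-coding start and over 1000 bp from every lncRNA start. Their median fold enrichment was 4.07 in sgCtrl and 4.06 in sgSNHG1, between that of protein-coding promoter peaks (4.37 and 4.77) and that of other distal peaks (3.73 and 3.71). The order was the same for CpG content. CpG-rich windows, with at least 50% GC and a CpG observed-to-expected ratio of at least 0.6 over 500 bp around the summit, made up 34.7% of the standalone lncRNA peaks in sgCtrl (777 of 2238, interval 32.8 to 36.7%) and 38.5% in sgSNHG1. The corresponding shares were 59.5% and 66.3% of protein-coding promoter peaks and 8.76% and 9.80% of other distal peaks. Among standalone lncRNA peaks that spanned a start, the share was 51.4% in sgCtrl and 54.2% in sgSNHG1, and among those that did not it was 27.1% and 31.1%.

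High GC content was general in these lists, with a median of 62.6% and 62.8% at standalone lncRNA peaks, 66.0% and 66.4% at protein-coding promoter peaks and 59.4% in both lists at other distal peaks. GGGCGG occurred in 51.3% of the 500 bp windows of standalone lncRNA peaks in sgCtrl and in 53.3% in sgSNHG1, between the 66.7% and 69.6% of protein-coding promoter peaks and the 34.4% and 34.8% of other distal peaks. AGATAA occurred in 6.52% and 7.37%, CCAAT in 28.2% and 28.4%, TATAAA in 5.27% and 5.35%, TGANTCA in 7.73% and 7.47%, and TAATTA in 2.82% and 2.76%. CACGTG occurred in 10.9% and 11.4% of standalone lncRNA peaks, 10.6% and 10.5% of protein-coding promoter peaks and 9.66% and 9.28% of other distal peaks. The looser form CANNTG, which includes CACGTG, occurred in 88.5% and 88.0% of standalone lncRNA peaks and in 89.6% and 88.1% of all peaks.

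Repeated sequence was frequent at these loci. A window was taken as repeated where its stretches of 30 bases had a median of more than 1 copy in the reference. This held for 381 of 2238 standalone lncRNA peaks in sgCtrl (17.0%) and 336 of 1887 in sgSNHG1 (17.8%), for 4.14% and 3.32% of protein-coding promoter peaks, and for 20.6% and 21.8% of other distal peaks (1 peak in 10 of the last 2 kinds was examined). Repeated standalone lncRNA peaks had a median fold enrichment of 5.09 in sgCtrl against 3.92 for the others. Other distal sgCtrl peaks had a similar gap (4.63 against 3.53), and protein-coding promoter peaks did not (4.43 against 4.41). Of the 20 highest standalone lncRNA peaks, 11 in sgCtrl and 8 in sgSNHG1 were repeated, a count not made for other kinds of peaks. How reads from copies were assigned is not given in the sources used here for the ChIP-seq libraries, and its part in these heights was not tested.

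The first comparison was of the number of peaks with and without *SNHG1* depletion. Standalone lncRNA peaks were 15.7% fewer in sgSNHG1, a ratio of 0.843. The ratio was 0.917 for protein-coding promoter peaks, 0.721 for other distal peaks and 0.784 for all peaks, so lncRNA starts lost a smaller share of peaks than other distal sites and a larger share than protein-coding promoters. Counted by gene, 1981 of 12753 lncRNA genes with a standalone start had such a peak in sgCtrl (15.5%) and 1684 in sgSNHG1 (13.2%), with 1427 in both, 554 only in sgCtrl and 257 only in sgSNHG1. The genes in both made up 72.0% of the sgCtrl genes and 84.7% of the sgSNHG1 genes.

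Host genes of small RNAs stood out among the name classes. Of the 20 genes named as small nucleolar RNA hosts (SNHG) with a standalone start, 14 had a peak in each list and 13 had one in both. Of 65 microRNA host genes, 30 (46.2%) had a peak in sgCtrl and 26 (40%) in sgSNHG1, with 25 in both. Intergenic genes with a LINC name numbered 2125, of which 417 (19.6%) and 357 (16.8%) had a peak. Genes named as antisense (-AS) numbered 812, of which 17.4% and 12.9% had one, with 51 only in sgCtrl and 15 only in sgSNHG1. Genes with no symbol formed the largest class, with 8944 members, and had a peak in 13.2% and 11.1% of cases.

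Whether a standalone lncRNA peak was found again in the other list was compared next, with an overlap of at least 1 bp counted as shared. In sgCtrl, 1516 of 2238 were shared (67.7%, interval 65.8 to 69.6%) and 722 (32.3%) were not, beside 38.7% of all sgCtrl peaks. In sgSNHG1, 1507 of 1887 were shared (79.9%, interval 78.0 to 81.6%) and 380 (20.1%) were not, beside 20.6% of all sgSNHG1 peaks. Over 1000 bp from every peak of the other list lay 591 standalone lncRNA peaks of sgCtrl (26.4%, beside 31.5% of all) and 252 of sgSNHG1 (13.4%, beside 13.7% of all). For the sgSNHG1 list the shares of standalone lncRNA peaks were thus near those of all peaks. When the longer list was reduced to the size of the shorter, 76.1% of sgCtrl and 72.8% of sgSNHG1 peaks were shared, so which list had the larger share depended on the list sizes.

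Peaks not found again were mostly low. The median fold enrichment was 4.52 for shared and 3.52 for unshared sgCtrl peaks, and 4.32 and 3.53 in sgSNHG1. Among sgCtrl peaks the shared part was 31.0% at a −log10 p from 6 to 10, 58.7% from 10 to 20, 93.4% from 20 to 50 and 99.1% at 50 or more. Protein-coding promoter peaks of the same significance were shared in 33.2%, 65.3%, 96.9% and 100%, and other distal peaks in 22.3%, 48.5%, 90.6% and 99.1%. CpG-rich standalone lncRNA peaks of sgCtrl were shared in 81.1% and the others in 60.6%, with median fold enrichments of 5.26 and 3.59. Over all sgCtrl peaks the split was wider, with 86.1% and 52.3% shared and median fold enrichments of 5.31 and 3.43. In sgSNHG1 the shares were 86.2% and 75.9% at standalone lncRNA starts, beside 89.4% and 74.5% over all peaks. By significance, sgSNHG1 peaks at standalone lncRNA starts were shared in 55.8%, 77.2%, 96.3% and 99.1%, beside 60.6% of protein-coding promoter peaks and 58.1% of other distal peaks in the lowest range and 76.3% and 76.4% in the next.

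**Figure D2:**
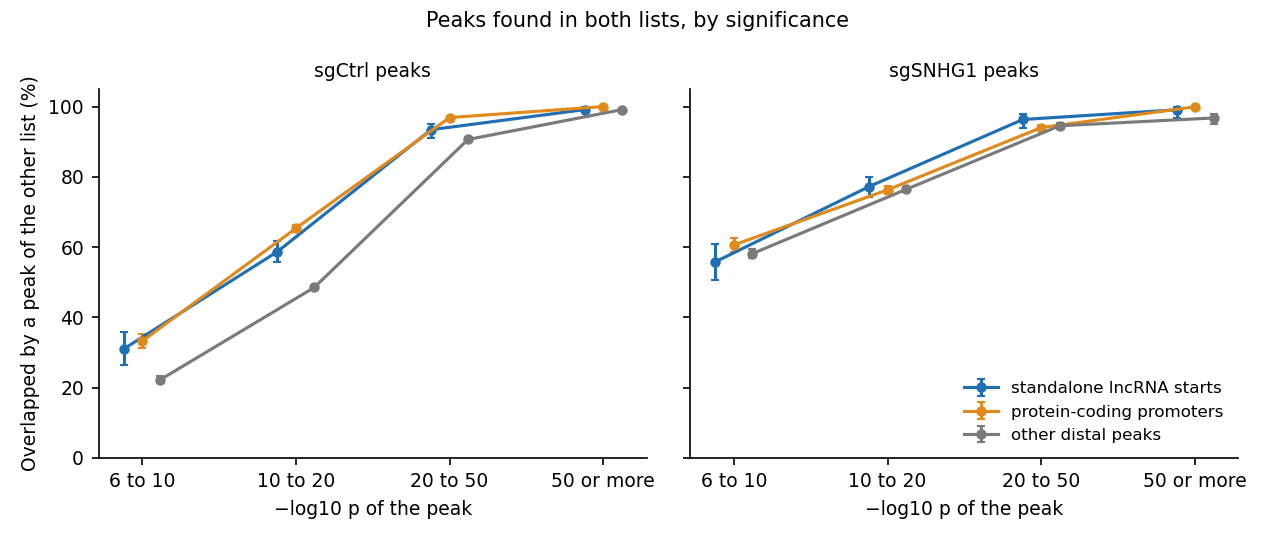
Share of peaks (%, y axis) overlapped by a peak of the other list in 4 ranges of −log10 p (x axis), for sgCtrl peaks (left) and sgSNHG1 peaks (right), with 95% Wilson intervals as bars. Standalone lncRNA peaks (blue) of sgCtrl rise from 31.0% to 99.1% and run nearer to protein-coding promoter peaks (orange) than to other distal peaks (grey) in the lower 2 ranges, while those of sgSNHG1 do not (55.8% from 6 to 10, below both other kinds).

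For shared peaks, the log2 ratio of the sgSNHG1 to the sgCtrl fold enrichment was taken relative to its median over all shared peaks, which was -0.03. Over the 1516 pairs at standalone lncRNA starts the median relative log2 ratio was -0.01 (interval -0.03 to 0.01), with 736 pairs above 0 and 780 below. The median was 0.06 at protein-coding promoters and -0.05 at other distal sites. Past 1.5-fold, 34 pairs were higher in sgSNHG1 (2.24%, beside 2.1% of all pairs) and 40 were lower (2.64%, beside 2.14%). Of the 1516 pairs, 1442 lay within 1.5-fold, and the shares past it were near those of all pairs.

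**Figure D3:**
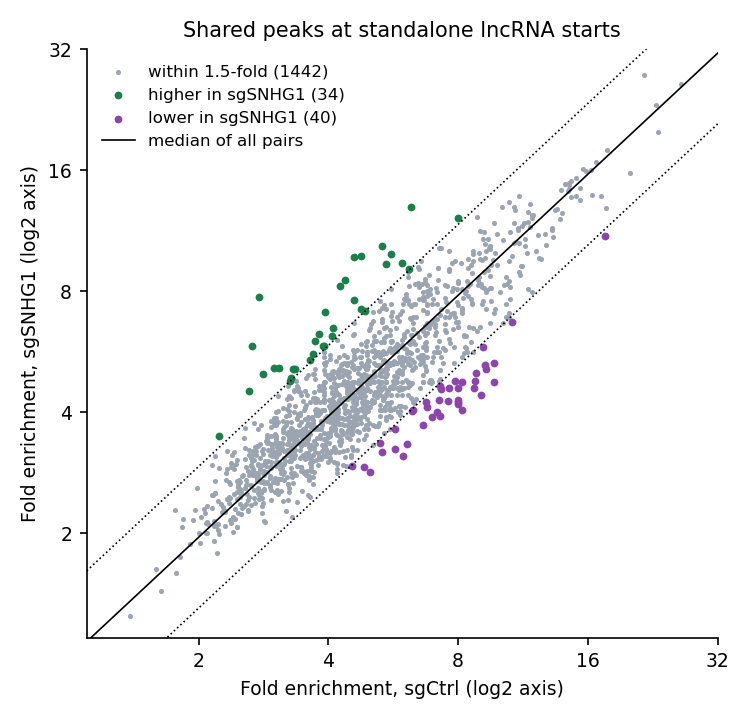
Fold enrichment of the 1516 shared standalone lncRNA peaks in sgCtrl (x axis) and sgSNHG1 (y axis), both on log2 axes, with 1 point per pair, a solid line at the median ratio of all shared peaks and dotted lines at 1.5-fold on either side. Most points (1442) lie between the dotted lines, 34 lie above and 40 below.

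The 8 highest genes were ranked by sgCtrl fold enrichment among those with a symbol and a peak in both lists. Lower values in sgSNHG1 at these 8 are therefore set in part by the ranking, which the intervals do not cover. *FAM230C*, of a family of duplicated lncRNA genes, had a fold enrichment of 26.3 in sgCtrl (chr13:18211762-18212519, summit in an exon, pileup 517) and 26.2 in sgSNHG1 (pileup 579), and its 30-base stretches had a median of 5.5 and 6 copies in the reference. *MIR4458HG*, a microRNA host gene 556658 bp from the nearest protein-coding start, had 23.3 and 19.97 (chr5:8457725-8458282, intron, relative log2 ratio -0.19, interval -0.47 to 0.09). *MIRLET7A1HG*, the host of let-7 microRNAs that restrain growth and maintain differentiation, had 23.03 and 23.3 (chr9:94166252-94166719, intron, 0.05). The intervals of these 3 loci include 0. *LINC00886* had 17.1 and 13.8 (-0.28, interval -0.51 to -0.05), *MFSD14CP*, which is also annotated as a transcribed pseudogene, had 16.7 and 16.7 with a median of 2 copies, and *EBLN3P*, derived from an old bornavirus insertion, had 16.4 and 13.9 (-0.21, interval -0.56 to 0.14).

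The remaining 2 of these 8 loci had lower values in sgSNHG1, with intervals below 0. *SNHG27* (chr4:131749341-131750916, intron, 1398378 bp from the nearest protein-coding start) had 17.6 in sgCtrl and 12.9 in sgSNHG1 (-0.42, interval -0.82 to -0.02), with pileups of 171 and 72 and a median of 5.5 copies. *LINC02249* (chr15:30195992-30196482, intron) had 17.5 and 10.96 (-0.64, interval -1.10 to -0.18), past 1.5-fold, with pileups of 102 and 61 and 2 copies.

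Genes with a symbol were next ranked where all their sgCtrl peaks lay over 1000 bp from every sgSNHG1 peak. The 5 with the highest values included 4 on the long arm of chromosome 4. *LINC02432* had a fold enrichment of 8.99 (summit in an intron, pileup 52, 7 copies) and *LINC01091* had 6.96 (intergenic, pileup 40, 4 copies). *SLC7A11-AS1*, which is transcribed opposite to the cystine transporter gene *SLC7A11*, had 6.45 (chr4:138088538-138089193, intron, pileup 37, 1 copy), and *LINC02273* had 6.23 (chr4:152090298-152090614, intergenic, pileup 39, 5 copies). The fifth, *LINC00351*, lay on chromosome 13 and had 5.94 (chr13:85362983-85363343, intergenic, pileup 34). All of them had over 30 fragments at the summit and no sgSNHG1 peak within 1000 bp.

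Chromosome 4 had the lowest ratio of peak numbers. It carried 67 standalone lncRNA peaks in sgCtrl and 34 in sgSNHG1, a ratio of 0.507 (interval 0.336 to 0.767), and all peaks of chromosome 4 had a ratio of 0.579. From base 100000000 on, a bound chosen after these genes had been seen, the numbers were 38 and 14. Of those 38, 11 were shared, with a median relative log2 ratio of -0.28, beside -0.12 for all shared peaks of that stretch, and 9 of 11 below 0. Over 1000 bp from every sgSNHG1 peak lay 26 of the 38, while 0 of the 14 sgSNHG1 peaks lay that far from an sgCtrl peak. Over chromosomes 1 to 22, 31.5% of all sgCtrl and 13.7% of all sgSNHG1 peaks lay that far. The counts for all peaks of that stretch are not given here, so these cannot be called particular to standalone lncRNA peaks. Before base 100000000 the numbers were 29 and 20. Copy number of chromosome 4 in the clones was not tested. Chromosome 7 had 143 and 145 standalone lncRNA peaks (ratio 1.01, all peaks 0.775) and chromosome 19 had 47 and 48 (1.02, all peaks 0.799), and the interval lay above the ratio of all peaks on chromosome 7 (0.805 to 1.28) and included it on chromosome 19 (0.683 to 1.53). Of the 22 chromosomes, chromosome 7 was the one whose interval did not include the ratio of all its peaks.

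**Figure D4:**
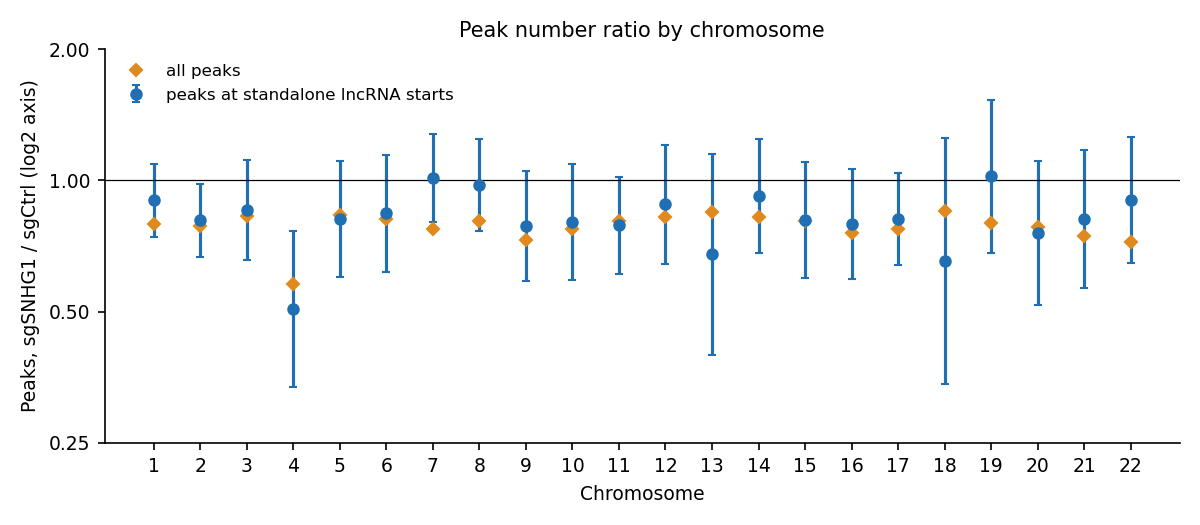
Ratio of the number of peaks in sgSNHG1 to that in sgCtrl (y axis, log2) for each of chromosomes 1 to 22 (x axis), with blue circles for standalone lncRNA peaks, bars for 95% intervals from the peak counts, and orange diamonds for all peaks. Chromosome 4 lies lowest for both (0.507 and 0.579), and chromosomes 7 and 19 have ratios of 1.01 and 1.02 for standalone lncRNA peaks.

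The same ranking was made for genes whose sgSNHG1 peaks all lay over 1000 bp from every sgCtrl peak. The highest was *GIHCG* (chr12:57935684-57936052, exon, within an intron of *ATP23*) with a fold enrichment of 9.72 and a pileup of 54. Next came *MIR3142HG* with 7.02 and a pileup of 40 (chr5:160467815-160468253, intron). *MIR3142HG* is the host of the inflammation-linked microRNA miR-146a. *LINC00842* had 6.45 (chr10:46397724-46398042, 3 copies), *SUGT1P4-STRA6LP* had 6.24 (chr9:97237806-97238239) and *LINC01242* had 5.83 (chr9:30574514-30574887). These 5 loci lay on 4 chromosomes, and none lay on chromosome 4.

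Among genes with a −log10 p of at least 10 in both lists, the largest relative rises were as follows. *THBS2-AS1*, beside the gene of the matrix protein thrombospondin 2, had a fold enrichment of 4.58 in sgCtrl and 9.73 in sgSNHG1 (chr6:169213442-169213984), a relative log2 ratio of 1.12 (interval 0.45 to 1.79) with pileups of 26 and 58. *LINC02848* had 4.75 and 9.77, a ratio of 1.07 (interval 0.41 to 1.74), with pileups of 27 and 55. *CCDC144BP*, also annotated as a transcribed pseudogene, had 5.43 and 9.37 (0.82, 2 copies) and *LINC00680* had 4.58 and 7.60 (0.76, 2 copies). At *LINC01998* the highest peaks of the lists did not overlap (3.80 and 6.57, summits in different parts of the gene), so its 0.82 compares different peaks of a gene.

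The largest relative falls were ranked in the same way. *LINC02148* had 9.67 in sgCtrl and 4.77 in sgSNHG1 (-0.99, interval -1.66 to -0.32), with pileups of 56 and 26, in sequence with a median of 84 and 80.5 copies. *DPY19L2P3*, also annotated as a transcribed pseudogene, had 9.67 and 5.30 (chr7:29684634-29685614, -0.84, interval -1.48 to -0.19) in single-copy sequence. *LINC01359*, with its summit in an intron of *JAK1*, had 9.28 and 5.13 (-0.83), *LINC02751* had 7.56 and 4.27 (-0.79) and *FGGY-DT* had 8.78 and 5.02 (-0.77). Both the rises and the falls were ranked by this ratio, so both their sizes and the heights from which they started are set in part by the ranking.

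Genes of 5 lists were examined by role, and none with a peak in both lists passed 1.5-fold on fold enrichment. Across all 1431 lncRNA genes with a peak in both lists, 32 rose and 46 fell past 1.5-fold on this measure. On pileups, *CYTOR* (relative log2 ratio 1.12), *PVT1* (0.92), *EPB41L4A-AS1* (0.69) and *SNHG6* (0.62) rose past 1.5-fold. So did *DLEU2* (1.83) and *SNHG30* (0.82), whose highest peaks did not overlap, and no listed gene fell past it. How many of all 1431 genes passed 1.5-fold on pileups is not given here. These rises therefore cannot be called particular to the listed genes. Small nucleolar RNA hosts, which release small RNAs that guide modification of ribosomal RNA from their introns, had the highest median relative log2 ratio of the 5 lists. Of 21 listed hosts with a standalone start, 14 had a peak in sgCtrl and 15 in sgSNHG1. Over the 14 in both, the median relative log2 ratio was 0.17 and 12 were above 0, beside a median of -0.01 and 694 of 1431 above 0 over all genes. On pileups 12 of the 14 were also above 0, beside 778 of 1431 genes, but on the percentile of fold enrichment 8 of 14 were, beside 506 of 1431, and on that of −log10 p 6 of 14 were, beside 496 of 1431. The number above 0 therefore depended on the measure. Unlike the ratios, the percentile changes were not taken relative to all shared peaks. Their medians were 0.77 for fold enrichment and -0.42 for −log10 p at the hosts, beside -2.86 and -3.63 over all genes. Among these 14 listed hosts, the intervals of all but *SNHG7* include 0. *SNHG27*, also named as a host but absent from this list, had a relative log2 ratio of -0.42 (interval -0.82 to -0.02). Its pileups were 171 in sgCtrl and 72 in sgSNHG1, so the values above hold for the listed hosts only.

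*DANCR* had fold enrichments of 13.8 and 14.3 (chromosome 4, near base 52712717, relative log2 ratio 0.07, interval -0.26 to 0.41), *SNHG25* had 11.9 and 12.2 (0.07), *SNHG6* 9.38 and 10.8 (0.23), *SNHG11* 8.92 and 9.95 (0.19) and *SNHG12* 7.95 and 8.13 (0.06). *SNHG17* had 6.63 and 7.73 (0.25), *EPB41L4A-AS1* 7.61 and 9.08 (0.29), *SNHG15* 5.22 and 5.64 (0.14), *SNHG32* 3.90 and 4.48 (0.23), *SNHG16* 6.24 and 6.23 (0.03) and *SNHG7* 4.67 and 5.73 (0.33, interval 0.01 to 0.65). *SNHG30* had 4.12 and 5.58 from peaks that did not overlap. The listed hosts with a value below 0 were *SNHG8* on chromosome 4 (8.99 and 6.54, -0.43, interval -1.04 to 0.19) and *SNHG26* (6.62 and 5.54, -0.22). *SNHG21* had a peak in sgSNHG1 alone (4.95, pileup 39).

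LncRNAs studied in neuroblastoma had a peak in 17 of 25 genes with a standalone start, 17 in sgCtrl and 15 in sgSNHG1, all 15 in both, with a median relative log2 ratio of 0.00. *NBAT1* and *CASC15*, at the 6p22 susceptibility locus and described as restraining neuroblastoma growth, share a peak that had a fold enrichment of 9.72 in sgCtrl and 7.24 in sgSNHG1 (chromosome 6, summit 22146829, relative log2 ratio -0.39, interval -0.75 to -0.04). The pileup at this peak was 126 in sgCtrl and 125 in sgSNHG1, so the fragments over the summit were nearly equal and the local background was higher in sgSNHG1. Over all shared peaks the median log2 ratio of pileups was -0.20. Relative to it, the log2 ratio on pileups at this peak was 0.19, of opposite sign to that on fold enrichment. *CASC15* carried 5 standalone lncRNA peaks in each list. *MIAT* (3.33) and *MYCNUT* (2.71), which lies near *MYCN*, had a peak in sgCtrl alone, both at a −log10 p under 10, in the range in which 31.0% of sgCtrl peaks at standalone lncRNA starts were shared.

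Other genes of this list did not pass 1.5-fold on fold enrichment. *LINC00839* had 9.11 and 7.58 (-0.23), *HAGLR*, at the *HOXD* cluster, 5.50 and 4.53 (-0.25), *PCAT1* 5.94 and 5.48 (-0.08) and *PVT1*, the neighbour of *MYC*, 5.56 and 6.41 (0.24, interval -0.10 to 0.57). The *PVT1* pileup was 116 in sgCtrl and 191 in sgSNHG1, a relative log2 ratio of 0.92 on pileups, and the local background was also higher in sgSNHG1. *PVT1* carried 10 standalone lncRNA peaks in sgCtrl and 9 in sgSNHG1. For *LINC01410* (5.41 and 6.50, interval 0.04 to 0.55, 2.5 and 2 copies) and *LINC-PINT* (4.27 and 3.89) the highest peaks of the lists did not overlap.

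Abundant lncRNAs had a peak in 10 of 12 genes in each list. *MIR17HG*, the host of an oncogenic microRNA cluster that MYC proteins induce, had the highest value of the listed genes and the same in both lists (14.4 and 14.4, pileups 383 and 398). *NORAD*, which binds Pumilio proteins, had 13.8 and 12.1 (-0.16, interval -0.47 to 0.16). *MALAT1*, a lncRNA of nuclear speckles, had 4.87 and 4.28 (-0.16) at pileups of 177 and 222, with 4 peaks in sgCtrl and 2 in sgSNHG1. *NEAT1*, the scaffold of paraspeckles, had 3.45 and 3.38 from peaks that did not overlap. *CYTOR* had 6.51 and 9.08 (0.51, interval -0.05 to 1.07, 2 copies), *DLEU1* had 8.15 and 7.20 (-0.15), and *DLEU2*, which shares the *DLEU1* peak in sgCtrl, had 8.15 and 8.02 from peaks that did not overlap.

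Of 10 imprinted lncRNAs with a standalone start, which are expressed from 1 parental allele, 5 had a peak. *MEG3*, the maternally expressed lncRNA of the *DLK1* locus, had 7 standalone lncRNA peaks in each list. Its highest values, 4.03 and 4.13, came from peaks that did not overlap. *MEG8* had 2.99 and 3.79 (0.38, interval -0.18 to 0.93), *MEG9* had 3.22 in sgCtrl alone and *PEG13* had 2.81 and 2.70. *KCNQ1OT1*, the paternally expressed antisense RNA that silences its neighbours, had 5.69 and 6.43 from peaks that did not overlap. Of the neural lncRNAs, *MIR9-1HG* and *MIR9-3HG*, hosts of the brain microRNA miR-9, had 9.07 and 8.19 (-0.11) and 5.84 and 6.75 (0.24), and *MIR124-1HG* had 5.05 and 4.27 (-0.21). The intervals of these 3 genes include 0. Of the 14 neural genes with a standalone start, 5 had a peak, with 5 in sgCtrl and 4 in sgSNHG1.

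**Figure D5:**
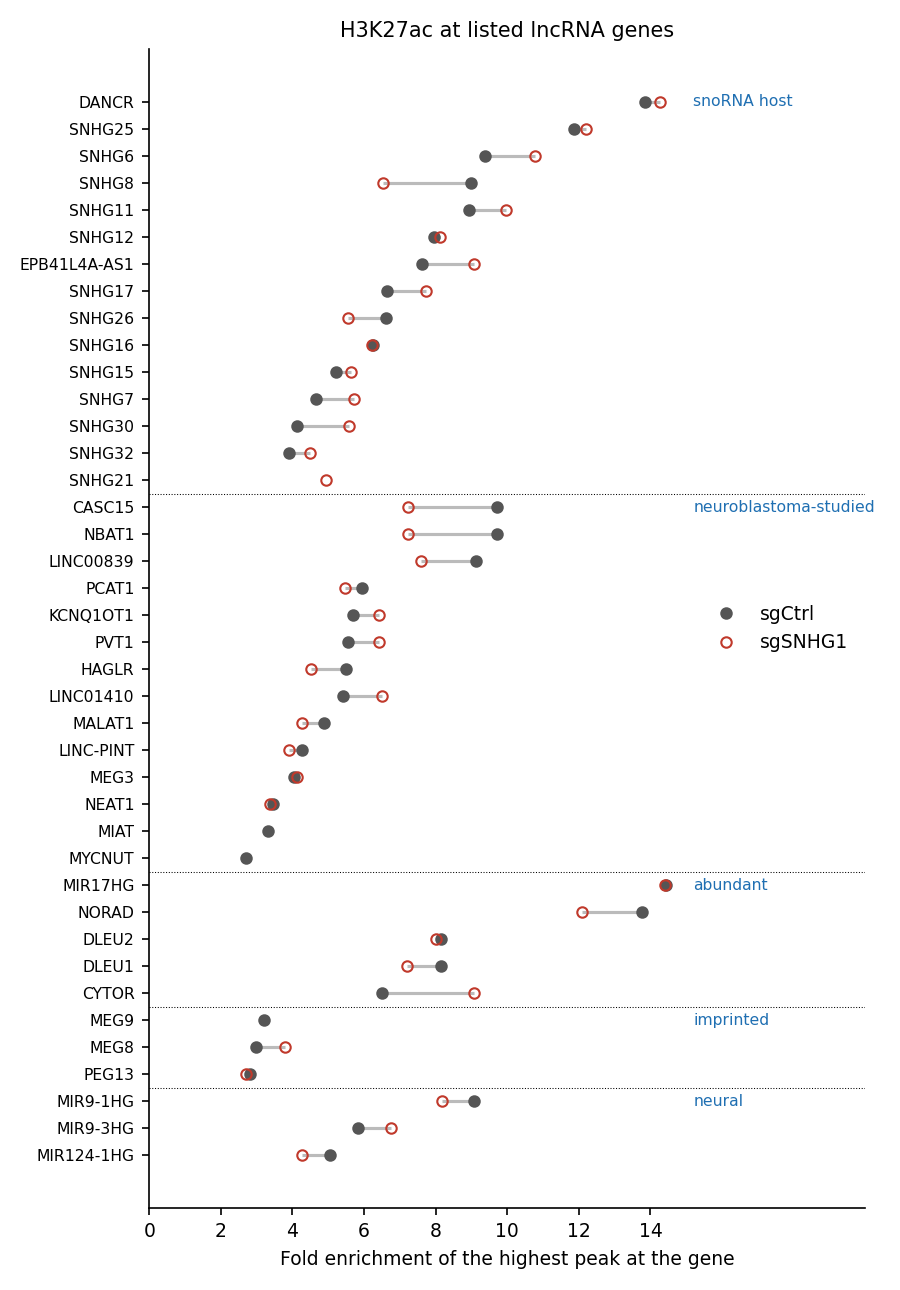
Fold enrichment (x axis) of the highest standalone lncRNA peak at each of the 40 listed lncRNA genes with such a peak (y axis), with filled grey circles for sgCtrl and open red circles for sgSNHG1, joined where both exist, and each gene drawn once under the first list that holds it. Values run from 2.70 to 14.4, and genes with 1 circle had a peak in 1 list only. Of the 14 listed small nucleolar RNA hosts with a peak in both lists, 12 have a relative log2 ratio above 0. By the percentile of −log10 p, which was not taken relative to all shared peaks, 6 of 14 are above 0.

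Since adrenergic and mesenchymal transcription factors mark the alternative states of neuroblastoma cells, standalone lncRNA peaks whose nearest protein-coding start belonged to one of them were counted. Next to 5 adrenergic factors there were 23 peaks in sgCtrl, of which 19 (82.6%) were shared, beside 65.9% of other distal peaks next to the same factors, and 20 in sgSNHG1, with 8 pairs of sgCtrl peaks above and 11 below a relative ratio of 0 and 0 past 1.5-fold. Most of these belonged to *MYCN*, which is amplified in this line, so the 82.6% mainly describes that locus. Of the sgCtrl peaks next to the other factors, those at *LINC02682* (near *SOX6*) and *LINC01810* (near *SOX11*) were not shared. Those at *SILC1* (near *SOX11*), near *HAND2* and at *LINC01607* (near *HEY1*) were shared. In the window of 500 kb on either side of *MYCN*, standalone lncRNA peaks numbered 25 in sgCtrl and 22 in sgSNHG1, 22 of 25 (88.0%) were shared and the median relative log2 ratio was -0.09. Peaks at *GACAT3* in this window had a low fold enrichment over very high pileups, for example 3.43 with 3955 fragments in sgCtrl and 3.22 with 2869 in sgSNHG1 at 68909 bp from *MYCN*. At *HAND2*, which encodes a factor of the sympathetic lineage, on chromosome 4, 2 peaks of sgCtrl (4.19 and 4.49) were both overlapped by an sgSNHG1 peak, and the first of them had 3.52 in sgSNHG1, with pileups of 86 and 29.

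Next to mesenchymal factors there were 16 peaks in sgCtrl, 13 of them shared (81.2%), beside 54.4% of other distal peaks next to the same factors, and 15 in sgSNHG1, with 9 pairs above and 4 below 0 and 0 past 1.5-fold. At *LINC01220* near *FOS*, an immediate early gene, a peak had 9.34 in sgCtrl and 8.05 in sgSNHG1. *LINC02777* near *JUN*, the AP-1 partner of FOS, had 6.61 and 8.33 at one peak and 4.01 and 3.36 at another. *LINC01135*, also near *JUN*, had peaks of 6.54 and 3.18 in sgCtrl that no sgSNHG1 peak overlapped. Peaks at *LINC00511*, 286836 bp from *SOX9*, had 4.71 in sgCtrl and 5.16 in sgSNHG1.

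Just inside and just outside the lncRNA limit of the rule the values were close. At the protein-coding limit they were lower outside, more so in sgCtrl. Standalone lncRNA peaks over 500 and up to 1000 bp from the lncRNA start had a median fold enrichment of 3.56 in sgCtrl and 3.52 in sgSNHG1. These lay below the 3.73 and 3.71 of other distal peaks. Peaks over 1000 and up to 2000 bp from the lncRNA start had 3.40 and 3.36. Standalone lncRNA peaks over 5 and up to 10 kb from a protein-coding start had 3.65 and 3.54, and peaks at lncRNA starts over 1000 and up to 5000 bp from a protein-coding start had 3.17 and 3.35. Peaks at lncRNA starts within 1000 bp of a protein-coding start had 5.85 and 6.04, and 91.2% of those of sgCtrl were shared.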

How the data were processed

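H3K27ac ChIP-seq of 4 samples, 2 per group, was used. Reads had been trimmed by the authors (cutadapt) and aligned (BWA, GRCh38), and MACS2 had been run on the 2 replicates together, with paired-end fragments, duplicates kept and a p-value of 1e-06. Each deposited peak has a fold enrichment (ratio of summit height over local background) and a −log10 p given by the caller. Depth per sample is not in these lists and is unknown. 1 list per group allows no test on replicates, so every comparison describes these lists.

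Peaks were assigned to every annotated transcript start of GENCODE release 44 lncRNA and protein-coding genes, and a gene's value was its highest peak. The genes named were the 8 highest with a symbol in both lists, the 5 largest relative rises and falls (−log10 p of at least 10 in both) and every listed gene with a peak. Also named were the 5 highest of each list whose peaks all lay over 1000 bp from every peak of the other list. Members and lists were chosen with earlier results of these data known. Pileups were recovered by assuming a Poisson p-value and a pseudocount of 1, within 0.001 for 99.8% of standalone lncRNA peaks in sgCtrl and 99.6% in sgSNHG1. Intervals of ratios of fold enrichment come from the pileups alone. The share of soft-masked sequence could not be computed from the reference used, and copies of 30-base stretches were counted instead, chosen after seeing the data. Peak ends all lay within the reference. Python 3.11.15, numpy 2.4.6, pandas 2.3.3, scipy 1.17.1, pysam 0.24.0 and matplotlib 3.10.9 were used, and functions were tested on simulated data and against bedtools 2.31.1. Alternatives were a stricter threshold, other distances, gene starts only, summit distances, merged peaks, lists of equal size, a stricter overlap and other measures of change, and, added after seeing the data, pileups and the removal of chromosome 4 or of repeated sequence. The start sequences of some named loci are not reported here.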

Additional observations from a re-analysis of the deposited data

Results flagged for a closer look

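On the X chromosome, which the comparisons left out, 26 peaks at standalone lncRNA starts were found in sgSNHG1 and 21 in sgCtrl, with median fold enrichments of 4.45 and 4.48. They are listed because a larger number appeared in the depletion list than in the control list outside the chromosomes compared. All peaks of this chromosome numbered 686 in sgSNHG1 and 624 in sgCtrl, and copy number was not tested.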

How the results depend on the processing

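No paired analysis was possible because both replicates of a group had been pooled before peaks were called, and leaving out replicates was not run for the same reason. Across 9 alternatives the sgSNHG1 to sgCtrl ratio of standalone lncRNA peak numbers ran from 0.820 to 0.865. The share of sgCtrl peaks shared was 71.3% with lncRNA starts within 500 bp, 65.2% within 2000 bp, 76.1% with lists of equal size and 56.6% with an overlap of 50% of both peaks, and that of sgSNHG1 peaks was 72.8% with lists of equal size and 66.7% with the 50% overlap. With equal lists the order of the groups was thus the opposite. The median relative log2 ratio was 0.023 on the recovered pileups and lay between -0.02 and 0.00 under the other rules, overlaps and subsets of peaks. The median change in percentile was -3.29 for fold enrichment and -4.21 for −log10 p. Unlike the ratios, these changes were not taken relative to all shared peaks, so they do not show a fall particular to standalone lncRNA peaks. The median fold enrichment in sgCtrl and sgSNHG1 was 4.41 and 4.43 with the stricter threshold, 4.25 and 4.32 within 500 bp, 3.90 and 3.89 within 2000 bp, and 3.92 and 3.91 without repeated sequence. It was 4.17 in sgCtrl with gene starts only and 4.17 in sgSNHG1 with protein-coding starts over 10 kb away. Median GC over the whole peak was 64.6% and 64.7%. Of 162 values at named genes under other measures of change, 33 had the opposite sign, none of them at a gene past 1.5-fold on fold enrichment. Of the 33, 12 were on pileups. The percentiles of fold enrichment and of −log10 p, which were not taken relative to all shared peaks, gave 10 and 11. Depth per sample is unknown, and low peaks were those least often found again.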
